A study of Mus musculus with 9 samples.

Results

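Kainate receptors are glutamate-gated ion channels, and the genes described here are the 5 that encode their pore-forming subunits, Grik1 to Grik5, together with Neto1 and Neto2, which encode their auxiliary transmembrane subunits. They were taken by gene symbol from a deposited table of hippocampal RNA, where each of the 7 had 1 entry among 57010 genes, and all 7 were among the 17967 genes that passed the filter on low counts. All mice were C57BL/6J and had surgery at a spinal nerve. CBD mice had the nerve tied (spinal nerve ligation, a model of neuropathic pain) and were then injected intraperitoneally with cannabidiol at 5 mg/kg for 15 days. SNL mice had the ligation and solvent. In sham mice the nerve was located but not tied, and solvent followed. Each group had 3 libraries, with 16972567 to 20470473 counts each. The labels state neither age nor sex, nor whether each library is from its own mouse. The p-values therefore measure only the spread between these libraries, which may be technical. CBD 1, SNL 1 and SNL 2 held hypothalamic marker transcripts (403, 318 and 75.1 CPM in sum, where CPM is counts scaled to the effective library size, against 8.46 to 12.4 CPM in the other 6). Values without CBD 1, SNL 1 and SNL 2 are also given for some results of the members, but not for the other receptor and partner genes.

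A kainate receptor is a tetramer. The products of Grik1, Grik2 and Grik3 (GluK1 to GluK3) can form channels on their own, while those of Grik4 and Grik5 (GluK4 and GluK5) bind kainate with high affinity but need a partner from the first set. In the hippocampus these receptors are known from the mossy fibre synapses that dentate granule cells make onto CA3 pyramidal cells, on both sides of the synapse, and from interneurons. The Neto proteins slow the gating of the receptor and help to place it at synapses.

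The promoter windows of 4 members are shown because only these members had groups that did not overlap in some comparison, Grik5 and Grik4 with lower levels in SNL than in sham and Grik2 and Neto2 with higher levels in CBD than in SNL. Each window runs from 250 bases before the annotated start to 50 bases after it, 5′ to 3′ on the strand of the gene, and was taken from RefSeq on build GRCm38.p6, an older build than the GRCm39 named for the counts. Capitals mark every match, on either strand, to the GC box GGGCGG, the cAMP response element half-site TGACG, the glucocorticoid receptor half-site AGAACA, the E-box CACGTG or the TATA box TATAAA.
The Grik5 window is chr7:25072320-25072619 and the Grik4 window chr9:42944322-42944621, both on the minus strand.
Grik5: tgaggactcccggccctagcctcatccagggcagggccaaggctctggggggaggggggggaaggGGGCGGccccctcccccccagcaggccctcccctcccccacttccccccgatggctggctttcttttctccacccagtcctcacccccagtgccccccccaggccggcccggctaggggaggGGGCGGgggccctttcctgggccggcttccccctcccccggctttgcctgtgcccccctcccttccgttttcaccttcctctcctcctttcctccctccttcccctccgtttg
Grik4: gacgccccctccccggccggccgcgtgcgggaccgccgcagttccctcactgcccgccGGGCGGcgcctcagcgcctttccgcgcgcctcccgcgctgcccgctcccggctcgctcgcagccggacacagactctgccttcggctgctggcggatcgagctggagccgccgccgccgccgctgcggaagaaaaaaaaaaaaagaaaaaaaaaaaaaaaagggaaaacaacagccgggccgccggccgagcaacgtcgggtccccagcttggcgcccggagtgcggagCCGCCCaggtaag
The Grik2 window is chr10:49788705-49789004, and the Neto2 window is chr8:85700875-85701174, the upstream one of the 2 starts listed for Neto2, both on the minus strand.
Grik2: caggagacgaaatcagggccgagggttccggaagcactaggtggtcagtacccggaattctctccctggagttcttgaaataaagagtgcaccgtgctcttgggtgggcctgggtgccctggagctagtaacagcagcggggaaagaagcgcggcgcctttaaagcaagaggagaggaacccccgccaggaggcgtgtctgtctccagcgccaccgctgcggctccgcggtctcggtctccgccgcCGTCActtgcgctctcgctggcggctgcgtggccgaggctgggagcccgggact
Neto2: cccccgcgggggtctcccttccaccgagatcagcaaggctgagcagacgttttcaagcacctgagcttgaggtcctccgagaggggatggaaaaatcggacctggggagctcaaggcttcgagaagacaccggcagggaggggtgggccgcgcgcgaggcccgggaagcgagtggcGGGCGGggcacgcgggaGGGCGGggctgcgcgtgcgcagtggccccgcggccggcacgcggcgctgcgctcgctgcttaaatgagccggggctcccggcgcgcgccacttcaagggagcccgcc
Matches were found for 2 of the motifs only, none overlapping another. The GC box, which 35.7% of all 32851 windows hold, occurred at 2 places in each of the Grik5, Grik4 and Neto2 windows and at none in the Grik2 window. The cAMP response element half-site, held by 20.8% of all windows, occurred once, in the Grik2 window, beginning 4 bases before the start and running up to it. The other motifs, held by 19.0% (glucocorticoid receptor half-site), 7.2% (E-box) and 13.6% (TATA box) of all windows, did not match in these 4, which says only that those letters are not there. The 4 windows were 64.7% to 72.0% G and C, against a median of 52.7% over all windows. The other Neto2 window, not shown, was 42.7% G and C and matched none of the motifs. The last 50 bases of the Grik5 and Grik4 windows are not held as an unbroken stretch in any GENCODE M21 transcript of these genes.

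Levels of different genes can be compared only per length, here as CPM per kilobase of the longest annotated transcript, which assumes that this transcript is the one made. On that scale Grik5 was the most abundant of the 7 genes in every group, at 37.2 ± 0.546 CPM per kb in CBD mice, 40.1 ± 3.18 in SNL mice and 61.2 ± 14.4 in sham mice (mean ± SD, n = 3 each). Grik1 had the lowest group means, at 4.39 ± 1.06 CPM per kb in CBD mice, 4.07 ± 0.204 in SNL mice and 3.39 ± 0.575 in sham mice. In SNL 2, Grik4 and Neto1 lay below Grik1, and in CBD mice the ranges of Grik1 (3.50 to 5.57) and Grik3 (5.51 to 9.62) overlapped. The other 5 lay between 5.37 and 12.1 CPM per kb as group means. In sham mice their order was Neto1 (12.1), Grik4 (10.8), Grik2 (7.24), Grik3 (6.35) and Neto2 (5.37), and within it Neto1 overlapped Grik4, Grik2 overlapped Grik3 and Grik3 overlapped Neto2 over the libraries. In SNL mice these 5 lay within 5.86 to 6.99 CPM per kb and could not be put in order beyond their spread. With the median length of the coding transcripts in place of the longest, Grik5 was still first and Grik1 last, but Grik2 moved up to 24.0 CPM per kb in sham mice, next to Neto1 at 22.7, so the order in the middle rests on which transcript is made.

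**Figure D1:**
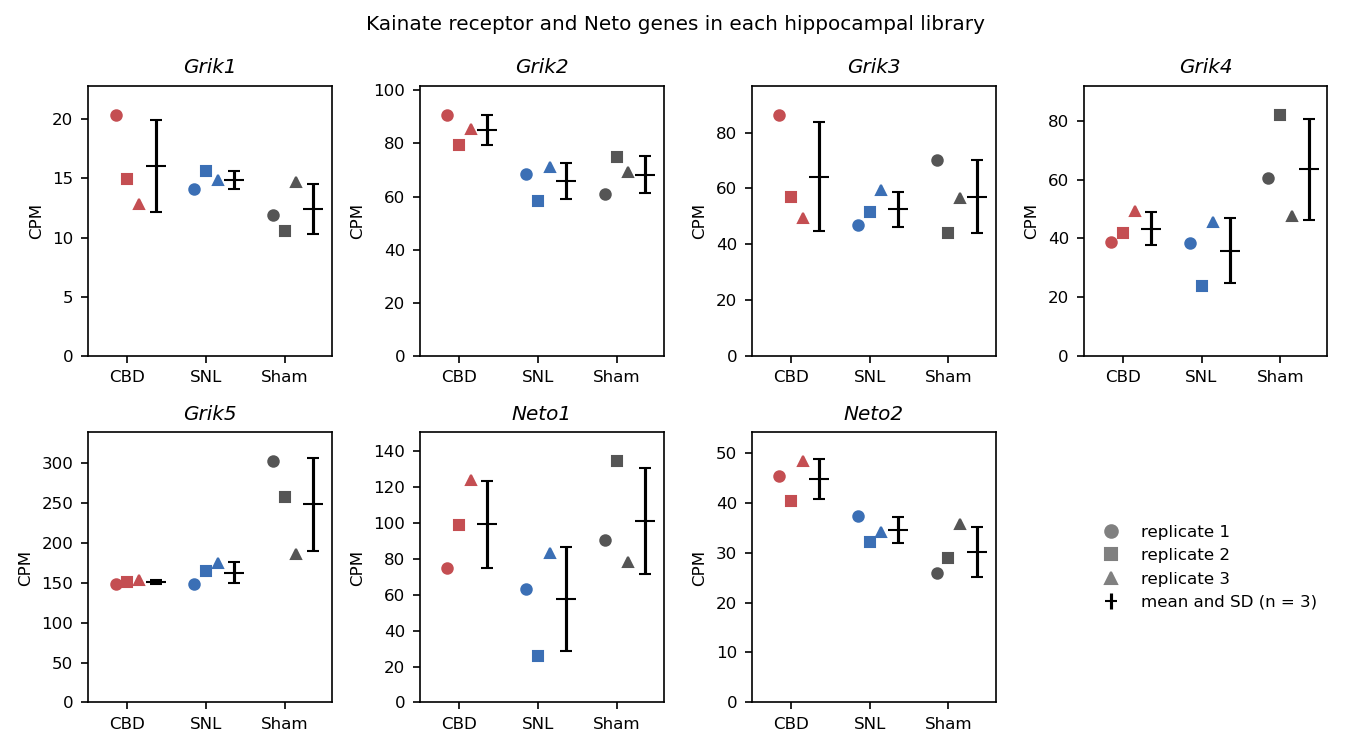
Levels in CPM (linear axis from 0) of the 7 genes in each of the 9 libraries, with CBD, SNL and Sham from left to right; symbols are libraries and the bar is the mean with SD (n = 3). Grik5 lay between 149 and 174 CPM in the 6 ligated libraries and between 186 and 302 CPM in sham, while Neto2 lay at 40.3 CPM or more in every CBD library and at 37.4 CPM or less in all others.

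The first comparison, SNL against sham, addresses what the ligation changed. The high-affinity subunits Grik4 and Grik5 were lower in every SNL library than in every sham library, by 1.77-fold and 1.53-fold, and Neto1 averaged 1.76-fold lower with overlapping groups. Grik1, Grik2, Grik3 and Neto2 differed by at most 1.20-fold. None of the 7 passed edgeR's quasi-likelihood test, which called 0% of all genes at a threshold of 0.05 on the adjusted p. By the unadjusted p at the same threshold, 3 members were lower, against 7.96% of all genes, and 0 were higher, against 5.83%. The groups did not overlap for 2 members that were lower, against 9.81% of all genes, and for 0 that were higher, against 7.94%. DESeq2's Wald test called 1 member, Grik5, where it called 1.75% of all genes. The median log2 fold change of the 7 was -0.12, against 0.01 over all genes.

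Grik5 stood at 148.9, 165.2 and 174.5 CPM in SNL 1 to SNL 3 and at 302.1, 257.2 and 186.4 CPM in Sham 1 to Sham 3. The groups did not overlap, and the sham libraries were spread over 1.62-fold while the SNL libraries were spread over 1.17-fold. The log2 fold change was -0.61 (SE 0.16, edgeR adjusted p 0.224), and it was -0.45 without Sham 1. DESeq2 gave an adjusted p of 0.0315, which became 0.106 with offsets for transcript GC content and length and 0.829 once SNL 1, SNL 2 and CBD 1 were left out, where SNL 3 alone represents its group. The DESeq2 log2 fold change was then -0.51, against -0.60 with all libraries.

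Grik4 stood at 38.3, 23.8 and 45.5 CPM in SNL 1 to SNL 3, against 60.7, 82.0 and 47.8 CPM in Sham 1 to Sham 3. SNL 2 was the lowest of all 9 libraries and Sham 2 the highest, and SNL 3 and Sham 3 were the closest pair across the groups. The log2 fold change was -0.83 (SE 0.24, edgeR adjusted p 0.236). With no filter on low counts the edgeR adjusted p was 0.0422, and over the other edgeR alternatives it ran from 0.0893 to 0.747. The value was -0.60 without SNL 2, -0.60 without Sham 2 and -0.47 without CBD 1, SNL 1 and SNL 2, where SNL 3 is assumed to vary like the other groups.

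Neto1, whose product is the Neto protein best known from CA3 pyramidal cells, stood at 63.4, 26.0 and 83.1 CPM in SNL 1 to SNL 3, against 90.4, 134.3 and 78.2 CPM in Sham 1 to Sham 3. SNL 3 lay above Sham 3, so the groups overlapped. The log2 fold change was -0.81 (SE 0.36, edgeR adjusted p 0.360). It was -0.46 without SNL 2 and -0.27 (adjusted p 0.869) without CBD 1, SNL 1 and SNL 2.

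Of the remaining subunits, Grik1 had a log2 fold change of 0.27 (SE 0.19), Neto2 of 0.20 (SE 0.13), Grik3 of -0.12 (SE 0.22) and Grik2 of -0.05 (SE 0.11), with edgeR adjusted p from 0.535 to 0.874. Grik2 averaged 65.9 ± 6.81 CPM in SNL mice and 68.2 ± 6.98 CPM in sham mice. Grik3 averaged 52.6 ± 6.25 CPM in SNL mice and 57.0 ± 13.1 CPM in sham mice. Ratios between members were taken on CPM, so depth cancels while their level still depends on the transcript lengths of both genes. That of Grik4 to Grik2 ran from 0.410 to 0.641 in SNL mice and from 0.691 to 1.10 in sham mice (difference of log2 means -0.79, exact permutation p 0.1, two-sided). The smallest p that 3 against 3 allows is 0.1, and the value adjusted over 9 ratio tests was 0.225. Without CBD 1, SNL 1 and SNL 2 the difference was -0.51. The ratio of Grik5 to Grik2 overlapped between SNL and sham (difference of log2 means -0.53, exact permutation p 0.2). That of Neto1 to Neto2 overlapped too (-1.14, exact permutation p 0.2), and its difference was -0.43 without CBD 1, SNL 1 and SNL 2.

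Tissue markers moved with this comparison. Of the thalamus and habenula list, 12 of 12 had a higher mean in SNL (median log2 fold change 1.08), with a summed level of 805 to 2056 CPM in SNL libraries and 482 to 694 CPM in sham libraries, and SNL 2 had the most. All 9 tested hypothalamic markers were higher in SNL, at 12.4 to 318 CPM in SNL libraries and 8.46 to 11.0 CPM in sham libraries. Of the endothelial and pericyte list, 8 of 8 had a higher mean in SNL (median 0.52, 6 at an unadjusted p under 0.05), at 506 to 656 CPM in SNL libraries and 373 to 434 CPM in sham libraries. All 8 myelin markers were higher too (median 0.34), with overlapping sums. Astrocyte markers summed to 3023 to 3460 CPM in SNL libraries and 3662 to 4336 CPM in sham libraries, with 4 of 7 lower (median -0.11). The defining hippocampal markers were present in every library. The dentate granule list summed to 296 to 442 CPM in SNL libraries and 473 to 768 CPM in sham libraries, with 11 of 11 lower (median -0.67). The CA1 list summed to 279 to 461 CPM in SNL libraries and 417 to 654 CPM in sham libraries, with 9 of 9 lower (median -0.72). The CA3 and mossy cell list summed to 640 to 903 CPM in SNL libraries and 792 to 1059 CPM in sham libraries, with 6 of 9 lower (median -0.11). Of these CA3 sums, 306 to 669 CPM came from 1 gene of the list. No marker in these lists passed the edgeR test. In bulk tissue fewer cells of a type and less RNA per cell cannot be told apart, and the part of tissue makeup in the values of Grik4, Grik5 and Neto1 was not tested.

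**Figure D2:**
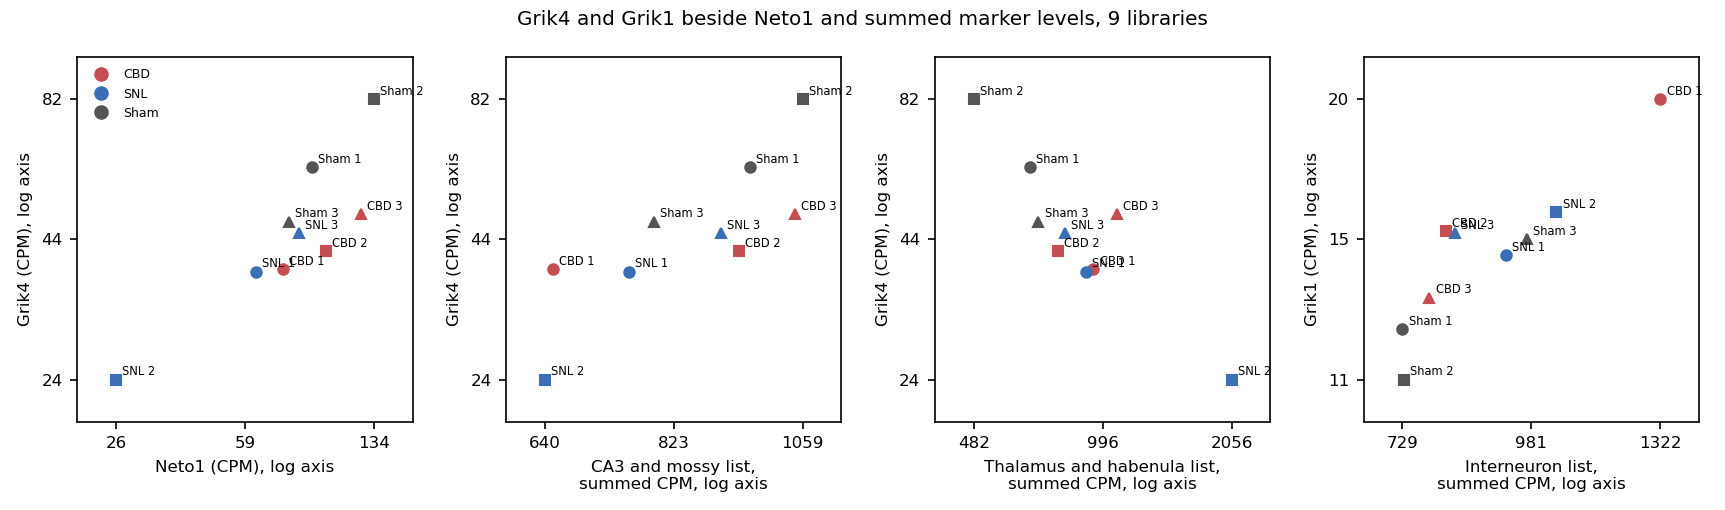
Grik4 against Neto1, against the summed CA3 and mossy cell markers and against the summed thalamus and habenula markers, and Grik1 against the summed interneuron markers, all in CPM on log axes over the 9 libraries; colours are groups. SNL 2 stands at the low end of Grik4 and Neto1 and at the high end of the thalamic markers, and CBD 1 at the high end of Grik1 and of the interneuron markers.

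Of the 21 pairs of members, 2 had a correlation larger than 0.8 in size across the 9 libraries and were picked for it, while the other 19 ran from -0.71 to 0.78. These relations are descriptions over libraries that share groups, depth and tissue makeup. Grik4 and Neto1 had a Pearson r of 0.87 on log2 CPM (Spearman rho 0.85), and 0.96 for the deviations from group means. Without SNL 2 and Sham 2, the 2 libraries farthest from the median of Neto1, r was 0.50, so the relation rests largely on them. Both genes followed the CA3 and mossy cell list (r 0.81 for Grik4 and 0.83 for Neto1) and ran against the thalamus and habenula list (r -0.91 and -0.81). Without the 2 farthest libraries of each list, the values were 0.68 and 0.95 for the CA3 list and -0.49 and 0.21 for the thalamic list. A single gene held 306 to 669 CPM of the CA3 sums. Such relations were not particular to these lists. Over all libraries Grik4 had r -0.93 with the endothelial and pericyte list, and Neto1 had r -0.86 with the myelin list. Grik1 followed the interneuron list, with r 0.90 over all libraries, 0.91 within groups and 0.72 without CBD 1 and SNL 2. Neto2 and Grik5 ran against each other, with r -0.85 over all libraries, -0.84 within groups and -0.80 without Sham 1 and CBD 3. Their longest transcripts lie at opposite ends of the range of GC content, at percentiles 1.35 and 98.0. The part of GC content in this relation was not tested.

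Among 13852 other genes with a symbol and a mean of at least 1 CPM, the 3 most like each member over the 9 libraries were taken by Pearson r of log2 CPM. For Grik4 they were Map2k1 (0.99), a kinase of the MAP kinase cascade, Wdr11 (0.98) and Frzb (0.98), a secreted Wnt-binding protein. For Neto1 they were Trhde (0.99), the enzyme that breaks down thyrotropin-releasing hormone, Or1o1 (0.98), an olfactory receptor gene at a mean of only 1.08 CPM, and Cd109 (0.98). For Grik5 they were Bop1 (0.99), a ribosome biogenesis factor, C2cd2l (0.99) and Telo2 (0.99). Neto2 was followed most closely by Nadk2 (0.99), a mitochondrial NAD kinase, Mapre1 (0.98), a microtubule end-binding protein, and Ero1a (0.97), an oxidase of the endoplasmic reticulum. Grik2 was followed by Arl4a (0.98), Fem1b (0.95) and Smarca1 (0.94), and Grik1 by Plscr2 (0.97), Lta4h (0.96) and Brinp3 (0.95). Grik3 had the lowest values, with Flrt1 (0.88), Dio3 (0.86) and Zbtb34 (0.86).

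The second comparison, CBD against SNL, addresses what cannabidiol changed in ligated mice, and it shares its SNL libraries with the first. Grik2, the main channel-forming subunit of principal cells, and Neto2 were each higher in every CBD library than in every SNL library, both by 1.29-fold. Neto1 averaged 1.73-fold higher with overlapping groups, and Grik5 did not differ by more than its error. None of the 7 passed the edgeR test, which again called 0% of all genes. At an unadjusted p under 0.05, 2 members were higher, against 6.5% of all genes, and 0 were lower, against 7.2%. The groups did not overlap for 2 members that were higher, against 9.18% of all genes, and for 0 that were lower, against 10.1%. DESeq2 called 0 members and 0.662% of all genes. The median log2 fold change of the 7 was 0.29, against -0.00 over all genes.

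Grik2 stood at 90.7, 79.5 and 85.3 CPM in CBD 1 to CBD 3, against 68.6, 58.2 and 71.0 CPM in SNL 1 to SNL 3. Every CBD library lay above every SNL library. The log2 fold change was 0.37 (SE 0.11, edgeR adjusted p 0.306). With offsets for transcript GC content and length it was 0.04 (SE 0.13, adjusted p 0.957), and it was 0.22 once CBD 1, SNL 1 and SNL 2 were left out.

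Neto2 stood at 45.4, 40.3 and 48.2 CPM in CBD 1 to CBD 3, against 37.4, 32.2 and 34.1 CPM in SNL 1 to SNL 3. The groups did not overlap. The log2 fold change was 0.37 (SE 0.13, edgeR adjusted p 0.313), and with the offsets it was 0.09 (SE 0.10).

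Neto1 stood at 75.1, 98.7 and 123.8 CPM in CBD 1 to CBD 3, with CBD 1 below SNL 3 (83.1 CPM). Its log2 fold change was 0.79 (SE 0.36, edgeR adjusted p 0.375), 0.44 without SNL 2, 0.42 without CBD 1, SNL 1 and SNL 2, and 0.46 with the offsets. Grik4 had a log2 fold change of 0.27 (SE 0.24), 0.05 without SNL 2 and 0.0075 without CBD 1, SNL 1 and SNL 2. Its CBD libraries (38.7, 41.9 and 49.5 CPM) overlapped those of SNL. Grik3 had 0.29 (SE 0.22), with CBD 1 at 86.4 CPM as the highest library of all, and 0.01 without CBD 1. Grik1 had 0.11 (SE 0.18), with CBD 1 again highest at 20.4 CPM, and -0.11 without CBD 1. CBD 1 also had the largest sum of interneuron markers (1322 CPM, against 775 to 806 CPM in the other CBD libraries) and of hypothalamic markers (403 CPM, against 8.69 to 8.98 CPM).

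Grik5 was at 148.9, 151.5 and 153.4 CPM in CBD 1 to CBD 3, a spread of 1.03-fold that lay at the low end of the SNL range. Its log2 fold change was -0.11 (SE 0.16, edgeR adjusted p 0.794). The ratio of Grik5 to Grik2 ran from 1.64 to 1.90 in CBD mice and from 2.17 to 2.84 in SNL mice (difference of log2 means -0.48, exact permutation p 0.1, two-sided, the smallest possible, and 0.225 adjusted over the 9 tests). With both offsets, the log2 fold changes of Grik5 and Grik2 were 0.08 and 0.04 (SE 0.13 each). The ratio of Neto1 to Neto2 ran from 1.65 to 2.56 in CBD mice and from 0.808 to 2.43 in SNL mice (difference of log2 means 0.55, exact permutation p 0.4), and the difference was 0.04 without CBD 1, SNL 1 and SNL 2. That of Grik4 to Grik2 overlapped between the groups (difference of log2 means -0.06, exact permutation p 0.8). All 8 myelin markers (median -0.51) and all 8 endothelial and pericyte markers (median -0.22) were lower in CBD than in SNL. Neither sum overlapped between the groups. Myelin markers summed to 8298 to 9685 CPM in CBD libraries and 10550 to 14936 CPM in SNL libraries. Endothelial and pericyte markers summed to 480 to 503 CPM in CBD libraries and 506 to 656 CPM in SNL libraries. Of the thalamus and habenula list 11 of 12 were lower (median -0.40), and of the dentate list 9 of 11 were higher (median 0.32). The thalamic sums overlapped, at 776 to 1078 CPM in CBD libraries and 805 to 2056 CPM in SNL libraries, where SNL 2 was highest. Dentate sums overlapped too, at 314 to 613 CPM in CBD libraries and 296 to 442 CPM in SNL libraries. All 8 choroid plexus markers were higher (median 0.54), with overlapping sums (1174 to 1912 CPM in CBD libraries, 264 to 2236 CPM in SNL libraries). Astrocyte markers summed to 3540 to 4438 CPM in CBD libraries, above every SNL library, but only 4 of 7 were higher and 3 were lower (median 0.09). The part of these markers in the members' values was not tested.

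CBD against sham was the third comparison, and it shares libraries with both others. Grik5 was 1.64-fold lower in CBD mice, and Neto2 was 1.48-fold and Grik2 1.25-fold higher, each with groups that did not overlap. None of the 7 passed the edgeR test (0% of all genes). At an unadjusted p under 0.05, 2 members were lower, against 8.87% of all genes, and 2 were higher, against 7.41%. The groups did not overlap for 1 member that was lower, against 11.1% of all genes, and for 2 that were higher, against 10.6%. DESeq2 called 2 members, Grik5 and Neto2, and 1.28% of all genes. The median log2 fold change of the 7 was 0.17, against 0.00 over all genes.

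Grik5 averaged 151 ± 2.22 CPM in CBD mice and 249 ± 58.4 CPM in sham mice. Its log2 fold change was -0.72 (SE 0.16, edgeR adjusted p 0.213), and without Sham 1 it was -0.55. DESeq2 gave an adjusted p of 0.0101, or 0.0248 without CBD 1, SNL 1 and SNL 2, and with no filter on low counts the edgeR adjusted p was 0.0444. With both offsets the log2 fold change was -0.36 (SE 0.13), and the adjusted p was 0.650 by edgeR and 0.531 by DESeq2.

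Neto2 averaged 44.7 ± 4.02 CPM in CBD mice and 30.2 ± 4.95 CPM in sham mice, where the libraries stood at 26.0, 28.8 and 35.6 CPM. Its log2 fold change was 0.57 (SE 0.13, edgeR adjusted p 0.213, DESeq2 adjusted p 0.0295). DESeq2's call was lost without CBD 1, SNL 1 and SNL 2 (adjusted p 0.0882), where its log2 fold change was 0.56, against 0.57 with all libraries. It was also lost with the offsets (0.752), where the edgeR log2 fold change was 0.23 (SE 0.10).

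Grik2 averaged 85.2 ± 5.63 CPM in CBD mice and 68.2 ± 6.98 CPM in sham mice, a log2 fold change of 0.32 (SE 0.11, edgeR adjusted p 0.237) that was 0.00 (SE 0.13) with the offsets. Grik4 averaged 43.3 ± 5.54 CPM in CBD mice and 63.5 ± 17.3 CPM in sham mice, with groups that overlapped (log2 fold change -0.55, SE 0.24, edgeR adjusted p 0.298, and -0.32 without Sham 2). Neto1 averaged 99.2 ± 24.4 CPM in CBD mice and 101 ± 29.5 CPM in sham mice, and its log2 fold change was -0.03 (SE 0.36). Grik1 had 0.37 (SE 0.19), with means of 16.0 ± 3.89 CPM in CBD mice and 12.4 ± 2.10 CPM in sham mice, and 0.16 without CBD 1. Grik3 had 0.17 (SE 0.22), with means of 64.3 ± 19.5 CPM in CBD mice and 57.0 ± 13.1 CPM in sham mice.

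Tissue markers moved with this comparison as well. Of the thalamus and habenula list 12 of 12 were higher in CBD (median 0.62), with sums of 776 to 1078 CPM in CBD libraries and 482 to 694 CPM in sham libraries, which did not overlap. All 9 tested hypothalamic markers (6 at an unadjusted p under 0.05) and all 8 choroid plexus markers (median 0.67) were higher, with sums that overlapped, and CBD 1 held nearly all of the hypothalamic sum. Of the endothelial and pericyte list 7 of 8 were higher (median 0.23), at 480 to 503 CPM in CBD libraries and 373 to 434 CPM in sham libraries. Of the dentate list 9 of 11 were lower (median -0.26), and of the CA1 list 7 of 9 (median -0.33). The part of these markers in the values of Grik5, Neto2 and Grik2 was not tested.

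**Figure D3:**
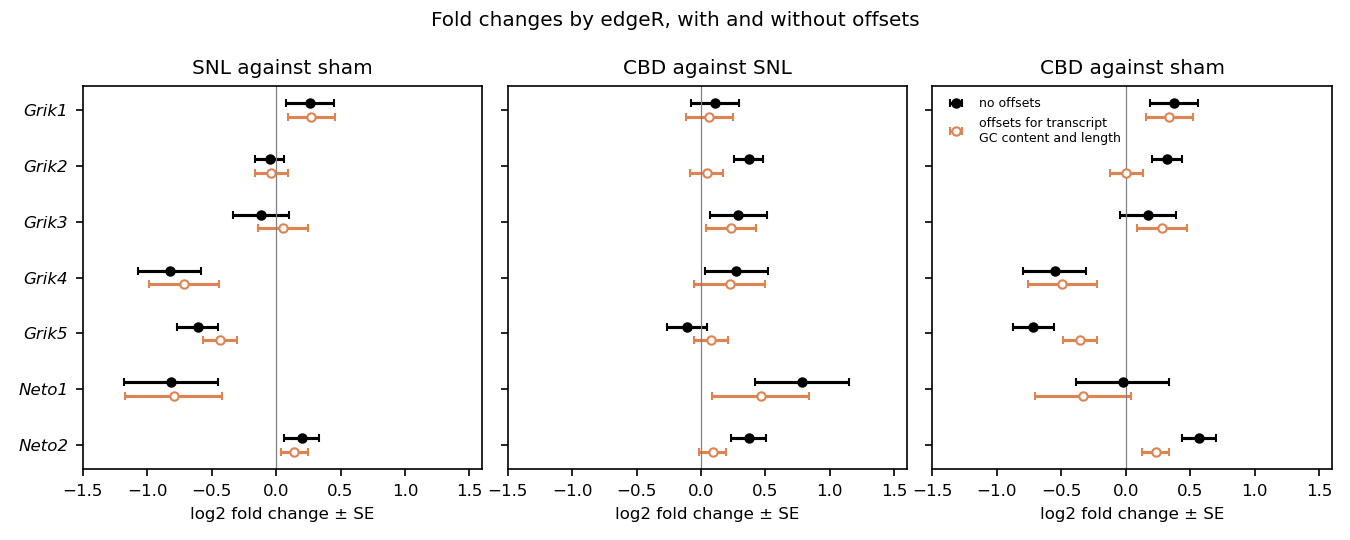
Log2 fold changes with SE by edgeR for the 7 genes in the 3 comparisons (filled points) and with offsets for transcript GC content and length (open points). The offsets bring Grik2 in CBD against SNL to 0.04 (0.37 without them) and Grik5 in CBD against sham to -0.36 (-0.72 without them), and leave Grik4 in SNL against sham at -0.71 (-0.83 without them).

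Grik5, Neto2, Grik2 and Neto1 sit near the ends of the range of transcript GC content, and fold changes across all genes followed that content. The longest transcript of Grik5 was 61.7% G and C, above 98.0% of tested genes, while those of Neto2 (36.5%), Grik2 (37.9%) and Neto1 (39.6%) were among the lowest, at percentiles 1.35, 3.03 and 6.48. In CBD against sham the Spearman rho of fold change on GC content across 17642 genes was -0.56, with a median log2 fold change of 0.29 in the 10% of genes with the lowest content and -0.33 in the 10% with the highest. The rho was -0.44 in CBD against SNL and -0.15 in SNL against sham, and genes are not independent replicates. Fold changes also followed transcript length, with a rho of 0.16 in CBD against sham, 0.36 in CBD against SNL and -0.19 in SNL against sham. The offsets adjust for GC content and length together, and the part of each was not tested. In GC content, Grik1 and Grik3 lay at percentiles 42.5 and 75.2. Grik4 (52.2%) lay near the middle of the range, and its log2 fold change in SNL against sham was -0.71 (SE 0.27) with the offsets. Grik5 in SNL against sham was -0.43 (SE 0.13) with them.

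The share of each pore-forming subunit among the 5 was computed per kilobase of the longest transcript, as a description without a test. Grik5 made up 57.2% ± 2.88 of the sum in CBD mice, 63.6% ± 2.81 in SNL mice and 68.3% ± 4.36 in sham mice (SD, n = 3 each), and every CBD library (53.9% to 58.9%) lay below every SNL (61.6% to 66.8%) and sham (64.1% to 72.8%) library. Grik2 made up 13.8% ± 0.458 in CBD mice, 11.1% ± 1.05 in SNL mice and 8.36% ± 1.97 in sham mice. Grik4 made up 11.3% ± 1.72 in CBD mice, 9.59% ± 2.57 in SNL mice and 12.1% ± 2.55 in sham mice, with overlapping groups. With the median length of the coding transcripts, Grik2 made up 32.6% in CBD mice, 27.4% in SNL mice and 21.4% in sham mice, and Grik5 44.0%, 51.2% and 57.5% in the same groups. The ratios that follow were taken on CPM and not per kilobase. That of Grik5 to Grik2 ran from 1.64 to 1.90 in CBD mice and from 2.69 to 4.96 in sham mice (difference of log2 means -1.01, exact permutation p 0.1, two-sided, the smallest possible). With the offsets, the log2 fold changes of Grik5 and Grik2 in this comparison were -0.36 and 0.00, and neither shares nor ratios are adjusted for GC content. The ratio of Grik4 to Grik2 ran from 0.427 to 0.581 in CBD mice and from 0.691 to 1.10 in sham mice (-0.85, exact permutation p 0.1). That of Neto1 to Neto2 overlapped between CBD and sham (-0.59, exact permutation p 0.3).

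**Figure D4:**
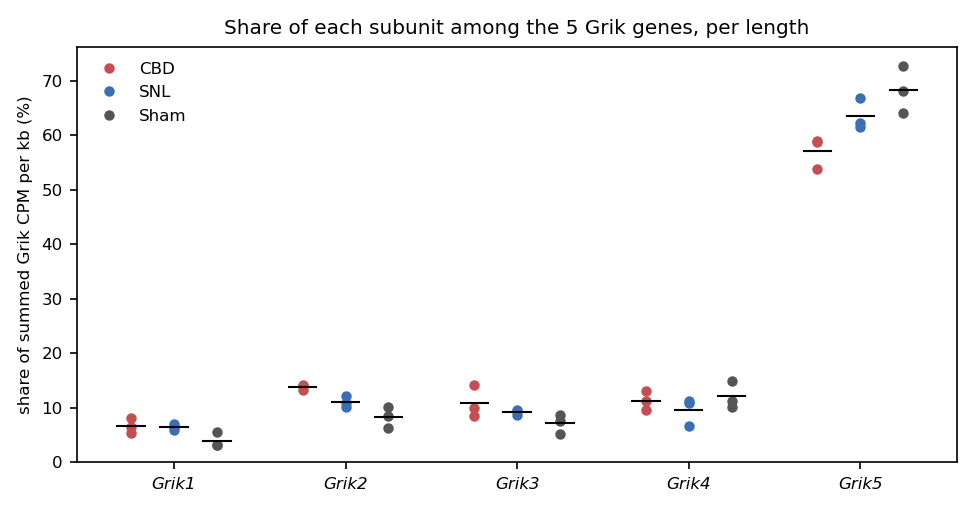
Share of each Grik gene in the summed CPM per kilobase of the 5 Grik genes, in percent on a linear axis from 0, for CBD, SNL and Sham from left to right; points are libraries and lines are group means (n = 3). Grik5 holds 57.2% in CBD, 63.6% in SNL and 68.3% in Sham, and Grik2 holds 13.8%, 11.1% and 8.36% in the same groups.

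Genes for the other ionotropic glutamate receptors were taken as a list of 13, of which 0 passed the edgeR test in any comparison. In SNL against sham 9 of 13 were lower (median log2 fold change -0.28), and the smallest p-values were those of Grin1, the obligatory NMDA receptor subunit (-0.46, SE 0.14), Gria1, an AMPA receptor subunit (-0.69, SE 0.22), and Grid1, a delta receptor (-0.28, SE 0.10), with edgeR adjusted p from 0.243 to 0.277. In CBD against SNL 8 of 13 were higher (median 0.16), and the smallest p-values, in either direction, were those of Gria2 (0.57, SE 0.23), Grin2c (-0.41, SE 0.21) and Gria1 (0.41, SE 0.22). In CBD against sham 8 of 13 were lower (median -0.06), and the smallest p-values, in either direction, were those of Grin1 (-0.46, SE 0.14), Gria4 (0.47, SE 0.20) and Grin2c (-0.43, SE 0.21).

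Of 25 genes for proteins reported to bind, modify, edit or anchor kainate receptors, 0 passed the edgeR test in any comparison, and their median log2 fold change was -0.06 in SNL against sham, 0.08 in CBD against SNL and -0.00 in CBD against sham. At an unadjusted p under 0.05, 5 were lower, against 7.96% of all genes, and 0 higher, against 5.83%, in SNL against sham. C1ql3 and C1ql2, secreted by mossy fibres and known in mice to recruit kainate receptors there, had log2 fold changes of -1.01 (SE 0.22) and -1.02 (SE 0.29), and Prkca, a protein kinase C, had -1.06 (SE 0.30), with edgeR adjusted p from 0.210 to 0.232. C1ql3 stood at 33.2, 45.6 and 52.3 CPM in SNL 1 to SNL 3, against 91.3, 107.5 and 64.7 CPM in Sham 1 to Sham 3, so every SNL library lay below every sham library. C1ql2 is also in the dentate granule list.

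In CBD against SNL, 4 of these 25 were higher, against 6.5% of all genes, and 2 lower, against 7.2%, at an unadjusted p under 0.05. Those of smallest p included Cul3, a ubiquitin ligase scaffold (0.41, SE 0.13), and Nrxn3, a presynaptic adhesion protein that binds C1q-like proteins (0.35, SE 0.12). In CBD against sham, 4 were higher, against 7.41% of all genes, and 4 lower, against 8.87%. Those of smallest p were Cul3 (0.56, SE 0.13), C1ql2 (-1.14, SE 0.29) and Klhl17 (-0.45, SE 0.12), an adaptor that links GluK2 to the Cul3 ligase, each with an edgeR adjusted p of 0.213. Cul3 stood at 124.3, 154.9 and 171.1 CPM in CBD 1 to CBD 3, against 90.6, 103.0 and 112.8 CPM in Sham 1 to Sham 3, while Klhl17 stood at 40.9, 39.2 and 34.8 CPM in the CBD libraries, against 59.9, 50.9 and 46.5 CPM in the sham libraries.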

How the data were processed

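Hippocampal RNA-seq libraries of 3 groups with 3 libraries each were used. The authors deposited expected counts per gene, not scaled for depth or length; the submitters' processing notes name RSEM, on build GRCm39. Aligner, annotation, strand setting and filters: not given in the sources used here, so reads of overlapping genes may be shared; the overlapping antisense gene of Neto1 in GENCODE M21 had at most 5.06 counts. Of the values, 18.3% to 24.8% per library were not whole, and all were rounded to whole numbers.

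Genes were kept by filterByExpr, scaled by TMM and tested by edgeR's quasi-likelihood F test (4.0.16, R 4.3.3) with group as the single factor, fitted to the 9 libraries together (6 residual degrees of freedom) and Benjamini-Hochberg adjustment over 17967 genes, at a threshold of 0.05. The test was checked on simulated data. The SE was taken as the size of the log2 fold change over the root of F. Alternatives included DESeq2 (1.42.0) without independent filtering, which left 22 genes without an adjusted p, and offsets from splines on the GC content and length of the longest GENCODE M21 transcript (98.2% of tested genes). Subunit ratios used exact permutation over libraries. Every pair of libraries differed beyond sampling noise (the lowest chi-square per gene was 6.46). The number of libraries limits the precision. Summed marker levels come from 12 lists of cell and tissue markers.

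The members, lists and alternatives were chosen with earlier results of these data known. Named genes are the 7 members, up to 3 with the smallest p of the receptor and partner lists in each comparison, and the 3 most like each member; 1 gene that this rule names is not reported here. Marker lists are given by counts and sums.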

Additional observations from a re-analysis of the deposited data

How the results depend on the processing

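Without a filter on low counts edgeR called 253 genes in SNL against sham, 1 in CBD against SNL and 56 in CBD against sham, where the filtered fit called 0, and Grik4 in SNL against sham (adjusted p 0.0422) and Grik5 in CBD against sham (0.0444) passed. DESeq2 called 314, 119 and 230 genes in the same order, 237, 15 and 11 with the offsets, and 47, 75 and 542 without the 3 libraries with hypothalamic transcripts, the last 2 settings being chosen after seeing the data. edgeR called 1, 2 and 20 without those 3 libraries, and 3 in SNL against sham and 1 in CBD against sham on only the 6 libraries compared. Leaving out 1 library gave 0 to 8, 0 to 2 and 0 to 17 calls, the highest each time without CBD 1. The cause of these changes was not tested. No consistent pairing by replicate number was seen, as 2 of 9 same-numbered pairs had deviations correlated over 0.1 (range -0.27 to 0.19). Whether same-numbered libraries shared a session or batch was not tested. The fit with the replicate number as a block called 0 genes in each comparison.

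Some log2 fold changes of Grik1, Grik2, Grik3, Grik5 and Neto1 changed sign. Without the 3 libraries with hypothalamic transcripts, Grik1 in CBD against SNL was -0.10 by edgeR and -0.10 by DESeq2, Grik2 in SNL against sham 0.068 and 0.062, Grik3 in SNL against sham 0.068 and 0.062, Grik3 in CBD against SNL -0.16 and -0.16, Grik3 in CBD against sham -0.088 and -0.094, and Neto1 in CBD against sham 0.15 and 0.15. With the offsets, Grik3 in SNL against sham was 0.051 and 0.051, and Grik5 in CBD against SNL 0.075 and 0.075, by edgeR and DESeq2. Leaving out 1 library gave -0.11 to 0.25 for Grik1 in CBD against SNL, -0.13 to 0.032 for Grik2 and -0.27 to 0.063 for Grik3 in SNL against sham, -0.10 to 0.35 for Grik3 and -0.22 to 0.23 for Neto1 in CBD against sham, and -0.24 to 0.085 for the Grik4 to Grik2 ratio in CBD against SNL. Grik4, Grik5 and Neto1 in SNL against sham, and Grik2 and Neto2 in CBD against SNL, kept their sign under every alternative run. No member had fewer than 209 counts in any library.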

Other observations

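Summed microglial markers ran from 226 to 266, 234 to 313 and 262 to 326 CPM, and oligodendrocyte progenitor markers from 179 to 222, 181 to 241 and 183 to 230 CPM, in CBD, SNL and sham libraries in that order. Adarb1, which encodes the enzyme that edits the pore site of GluK1 and GluK2 transcripts, was singled out after its values were seen. It stood at 758 CPM in SNL 2, the library with the most thalamic markers and the lowest Grik4 and Neto1, and at 290 to 374 CPM in the other 8 libraries.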
